A study of Mus musculus with 12 samples.

Results

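Ccng1, Bbc3, Phlda3, Eda2r, Cdkn1a, Mdm2, Sesn2, Trp53inp1, Bax and Pmaip1 are 10 mouse genes known as targets of the transcription factor p53. They were chosen by name, with earlier results of these data known. Every probe whose RefSeq accession named them was taken. This gave 13 probes of 39429 on the array and 10 genes of the 19751 that could be named. All 10 were among the 15369 genes tested, since each had a probe that was well above background on 3 or more of the 12 arrays. Eda2r reached that limit through siRNA arrays alone. The cells came from CD-1 mouse embryos, from the medial telencephalon (the midline wall of the developing forebrain), and gene expression was measured with one-colour Agilent arrays. The 4 groups, of 3 independent replicates each, were electroporated at E11.5. The first received siRNA set 1 and the second siRNA set 2, both directed against Dmrt3 and Dmrta2, a pair of DM-domain transcription factor genes. The third received an expression plasmid for Dmrta2, and the fourth, the only control, received control siRNAs. All 4 groups also received a vector for nuclear EGFP, and the fluorescent cells were sorted 24 h later, at E12.5, so each sample is a mixture of whichever cells took up and expressed the vector. No array held cells with an empty expression plasmid, and the number of embryos behind a sample is not given in the sources used here.

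When DNA is damaged, when ribosome assembly fails or when an oncogene is active, p53 escapes degradation and raises transcription of a set of genes that stop the cell cycle, start apoptosis or temper growth signalling. Mdm2 is both a target and the main brake, since its protein tags p53 for destruction, and in the mouse embryonic brain loss of that brake in neural progenitors leads to p53-dependent cell death. Among the 10 genes, Ccng1, Mdm2 and Trp53inp1 act on p53 itself, Cdkn1a encodes the cell cycle inhibitor p21, Bbc3, Bax and Pmaip1 act in mitochondrial apoptosis, and Phlda3, Eda2r and Sesn2 act on growth, receptor and stress signalling.

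p53 binds pairs of a 10-base half-site, and the annotated promoters show which of the genes carry such letters close to a start site. The p53 half-site consensus was searched in RefSeq windows of 300 bases (250 before an annotated start and 50 after it, build GRCm38.p6). The consensus is its own reverse complement, so 1 search covers both strands. A full site was taken as 2 half-sites up to 13 bases apart with at most 1 mismatch in all, and none at the fixed C and G of either half-site. Of 32851 windows of all genes, 8.356% held a half-site and 0.627% a full site. Windows were present for 8 of the 10 genes, 11 windows in all, and 4 genes had a half-site (Bax, Ccng1, Cdkn1a and Mdm2) while 2 had a full site (Ccng1 and Cdkn1a). The members are counted here by gene and the shares of all genes by window. A gene with several windows, as Bbc3 and Cdkn1a, has more chances of a match, so the 2 measures are unlike. The limit on mismatches was narrowed after the matches were seen. With up to 2 mismatches, 3 of the genes and 4.085% of all windows held a full site. The windows printed here begin with a gene that rose in the siRNA arrays and carries a full site (Ccng1, chr11:40755237-40755536, minus strand). Cdkn1a was not called in any comparison and carries full sites in the window printed (chr17:29090729-29091028, plus strand). Its other window, at a start further downstream (chr17:29093519-29093818), held no half-site and no full site. Phlda3 (chr1:135765835-135766134, plus strand) rose in set 2 with no whole half-site in its window. That window ends in letters that fit the beginning of a half-site, and the search could not read past its edge. Capitals mark half-sites and full sites.
Ccng1: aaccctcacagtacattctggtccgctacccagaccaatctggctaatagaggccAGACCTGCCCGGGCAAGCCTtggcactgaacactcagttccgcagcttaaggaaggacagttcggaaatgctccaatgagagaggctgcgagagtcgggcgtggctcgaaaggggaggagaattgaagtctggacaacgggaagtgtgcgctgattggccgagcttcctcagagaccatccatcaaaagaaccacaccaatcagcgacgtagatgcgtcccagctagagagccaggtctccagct
Cdkn1a: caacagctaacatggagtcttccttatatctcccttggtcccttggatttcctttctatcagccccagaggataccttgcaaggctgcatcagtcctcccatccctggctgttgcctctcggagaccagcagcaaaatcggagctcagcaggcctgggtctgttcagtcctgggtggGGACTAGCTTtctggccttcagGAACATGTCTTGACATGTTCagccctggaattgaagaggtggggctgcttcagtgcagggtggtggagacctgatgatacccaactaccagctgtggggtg
Phlda3: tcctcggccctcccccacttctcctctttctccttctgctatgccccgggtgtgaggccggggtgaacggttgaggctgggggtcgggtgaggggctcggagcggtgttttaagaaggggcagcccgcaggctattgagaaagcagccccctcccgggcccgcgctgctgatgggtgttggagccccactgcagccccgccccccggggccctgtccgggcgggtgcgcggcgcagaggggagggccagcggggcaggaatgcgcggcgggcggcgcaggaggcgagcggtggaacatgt
The full site of Ccng1 begins 195 bases upstream of the start and has 1 mismatch. In the printed window of Cdkn1a the 2 half-sites begin 73 and 51 bases upstream of the annotated start of that window. They form 1 full site across a gap of 12 bases, and the second of them overlaps another full site with 1 mismatch that runs without a gap. A match of letters is a description and shows no binding.

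Values are log2 of the background-subtracted spot signal minus the array's 75th percentile of that quantity, so 0 is a spot as bright as that percentile. Levels are compared between arrays for 1 gene and never between genes. The 12 arrays lay on 3 slides, and each slide held 1 array of every group with the same replicate number, always at the same position, so position and group cannot be told apart. The 75th percentile of the unscaled signal ran from 572 to 1142 over the arrays, 67.1% to 72.2% of spots passed the scanner software's test as well above background, and none was saturated. The markers of dorsal telencephalic progenitors Emx1, Emx2, Lhx2, Pax6 and Sox2 were well above background on every array. None of these 5 was called against control, and Pax6 was lower under the plasmid than over both siRNA sets (a log2 difference of -1.52, limma adjusted p = 0.0173) and than in set 2 (-1.49, 0.0354). A slide block also called Pax6 higher over both siRNA sets than under control siRNAs (1.06, limma adjusted p = 0.0376, 0.117 without). Dmrt3 stood at 53.5% and Dmrta2 at 72.7% of control over both siRNA sets, with limma adjusted p of 0.161 and 0.207. With the slide as a block Dmrt3 passed over both sets (adjusted p = 0.0280) and in set 1 (0.0410). In the plasmid arrays the Dmrta2 probe stood at 71% of control (adjusted p = 0.595), -0.03 from the siRNA arrays on the log2 scale, and it is unknown whether that probe lies within the sequence the plasmid carries. In a mixture of cells, fewer cells of a type and less RNA per cell cannot be told apart.

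Differences were tested with limma over all 12 arrays, with Benjamini-Hochberg adjustment over the 15369 genes, and a gene was called at an adjusted p under 0.05. Against control siRNAs, the cells that received siRNA set 2 had higher Ccng1, Bbc3 and Phlda3. No member was called lower in either set, and none was called in either direction under the Dmrta2 plasmid. Eda2r was well above background on no control array and entered the test through the siRNA arrays, so it is left out of the counts and given by its values. The other 9 genes were well above background on all 12 arrays. Because the genes were chosen with earlier results of these data known, the counts here and below are descriptions and no test of the set. In the test of set 2, 3 of these 9 were called higher, where 0.664% of all genes were. In that of set 1 the count was 0 of 9, where 0.15% of all genes were called higher. For the average of both sets it was 1 of 9, Ccng1, where 0.592% of all genes were. Under the plasmid it was 0 of 9, where 0.28% of all genes were called higher. At an unadjusted p under 0.05 there was 1 of 9 in set 1 (Ccng1), where 9.97% of all genes were, and 1 of 9 under the plasmid (Cdkn1a), where 4.48% were. The median log2 difference over the 9 genes was 0.44 in set 2, 0.31 in set 1, 0.41 in their average and 0.12 under the plasmid, and over all genes tested it lay between -0.01 and 0.01 in each of the 4.

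**Figure D1:**
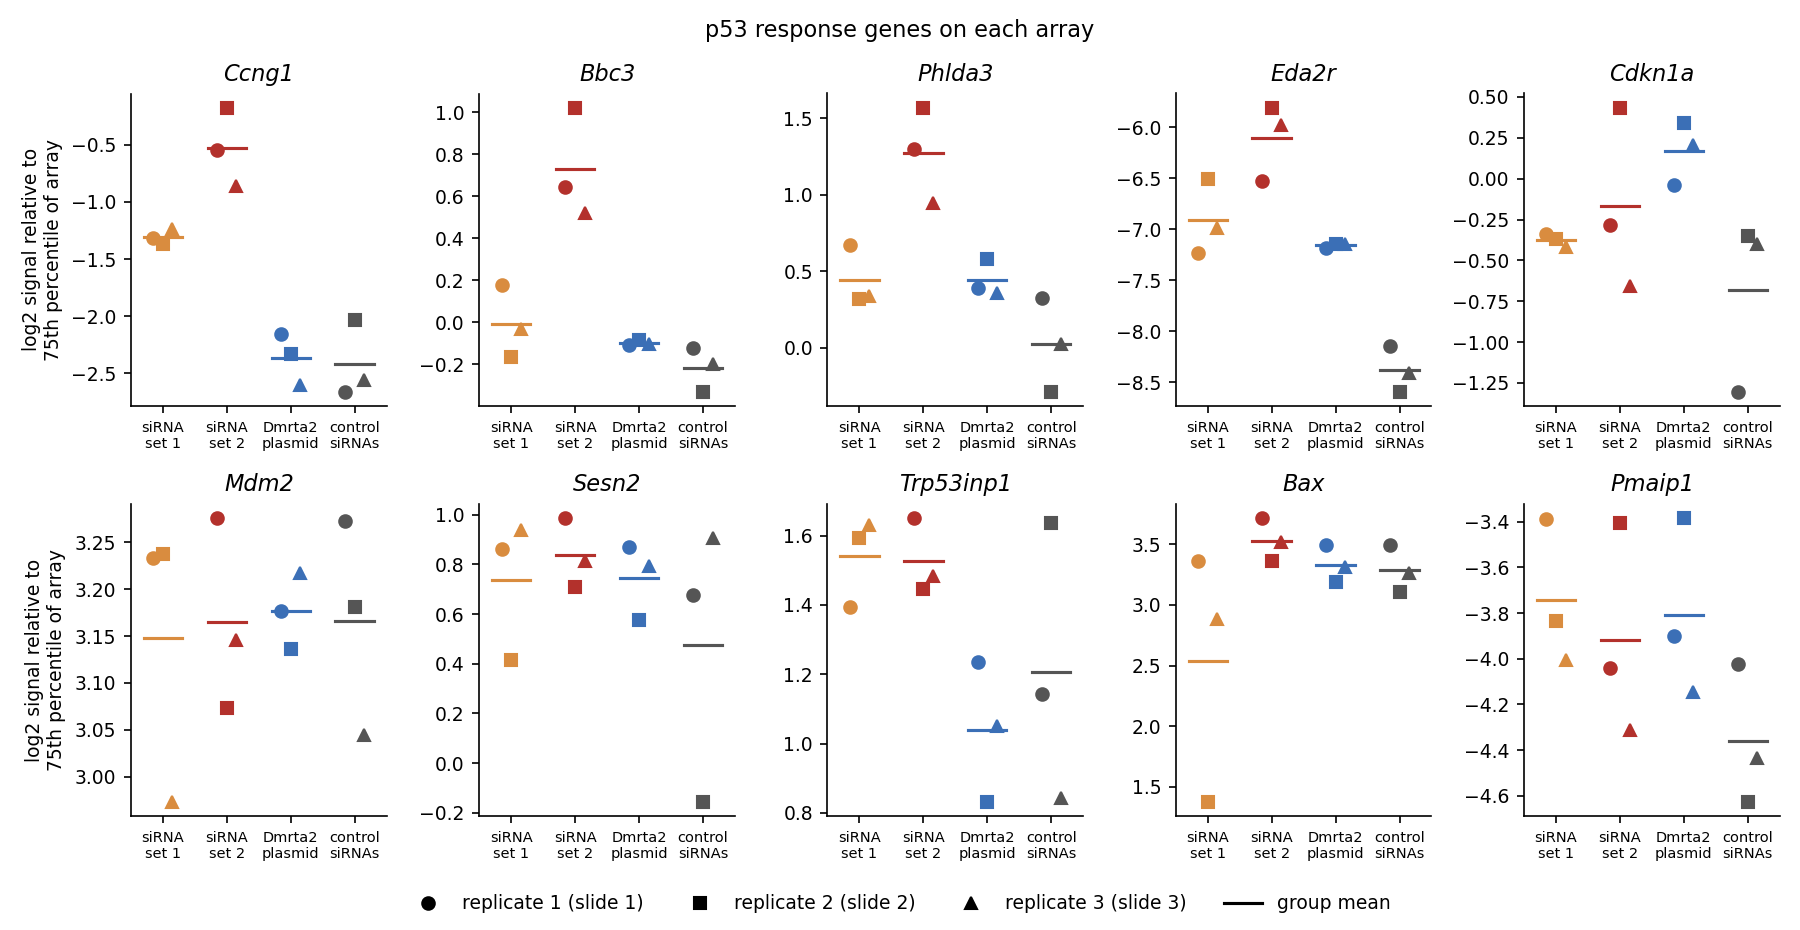
Log2 signal relative to the array's 75th percentile (vertical axes, each panel on its own scale) for the 10 genes on the 12 arrays, by group, with the marker shape giving the replicate and slide and the horizontal bar the group mean. For Ccng1, Bbc3, Phlda3 and Eda2r all 3 set 2 arrays lie above all 3 control arrays, and for Bax set 1 replicate 2 lies at 1.37, below every other array.

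Ccng1, which encodes cyclin G1 and takes part in the feedback on Mdm2 and p53, rose in set 2 and over both siRNA sets. Its level was -1.32, -1.37 and -1.23 in set 1, -0.55, -0.18 and -0.86 in set 2, -2.15, -2.33 and -2.60 under the plasmid, and -2.66, -2.04 and -2.56 under control siRNAs. All 6 siRNA arrays were above all 6 others, while the plasmid and control arrays overlapped. In set 2 Ccng1 rose 3.72-fold (a log2 difference of 1.89 ± 0.21, SE, n = 3 against 3, limma adjusted p = 0.00637). In set 1 it was 2.16-fold higher (1.11 ± 0.21), which missed the threshold (limma adjusted p = 0.0653) and passed it with the slide as a block (0.0408). Of the 12 fits that left out 1 array, 1 called it in set 1. Over both sets it rose 2.84-fold (1.50 ± 0.18, n = 6 against 3, limma adjusted p = 0.00896). Within slides 1, 2 and 3 the difference of set 2 from control was 2.12, 1.86 and 1.71, and that of set 1 was 1.35, 0.66 and 1.33. The call in set 2 held whichever array was left out, with an adjusted p of at most 0.0382. That over both sets was lost without control replicate 1 (1.38, adjusted p = 0.0566). The plasmid arrays differed from control by 0.06 ± 0.21.

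Mdm2 and Trp53inp1, the other regulators of p53 among the 10, were not called. Mdm2, the ubiquitin ligase that removes p53, lay between 2.97 and 3.28 on all 12 arrays. Its difference from control was -0.02 in set 1, 0.00 in set 2 and 0.01 under the plasmid, each with an SE of 0.11. Of the 10 genes it was the one whose arrays spread least. Trp53inp1, a stress-induced protein of the nucleus and of autophagosomes, was at 1.40, 1.59 and 1.63 in set 1, 1.65, 1.45 and 1.48 in set 2, 1.24, 0.83 and 1.05 under the plasmid, and 1.14, 1.64 and 0.84 under control siRNAs. Control replicate 2 was as high as the siRNA arrays and the other control arrays were lower, so the groups overlapped. The difference was 0.33 ± 0.19 in set 1 (limma adjusted p = 0.653) and 0.32 ± 0.19 in set 2 (adjusted p = 0.548). The second Trp53inp1 probe was not called in any comparison.

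Cdkn1a, which encodes p21, an inhibitor of cyclin-dependent kinases, was not called in any comparison. Its level was -0.34, -0.37 and -0.42 in set 1, -0.28, 0.43 and -0.65 in set 2, -0.04, 0.34 and 0.21 under the plasmid, and -1.30, -0.35 and -0.40 under control siRNAs. Control replicate 1 was lowest, the set 2 arrays included the highest of the 12 and the lowest after that control array, and only the plasmid arrays were all above the 3 control arrays. None of the differences passed the test: 0.31 ± 0.30 in set 1 (limma adjusted p = 0.850), 0.52 ± 0.30 in set 2 (0.534) and 0.85 ± 0.30 under the plasmid (0.662). Its second, dimmer probe gave -0.04, 0.20 and 0.47 for the same comparisons, also without a call.

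Of the 3 genes of mitochondrial apoptosis, Bbc3 rose in set 2 and Bax and Pmaip1 were not called. Bbc3 encodes Puma, a BH3-only protein that blocks the survival members of the BCL2 family. It was at 0.18, -0.17 and -0.03 in set 1, 0.64, 1.02 and 0.52 in set 2, -0.11, -0.09 and -0.10 under the plasmid, and -0.12, -0.33 and -0.20 under control siRNAs. The 3 set 2 arrays were above the 9 others, and set 1 overlapped control. Bbc3 rose 1.93-fold in set 2 (0.95 ± 0.14, limma adjusted p = 0.0285, 0.0270 with the slide as a block), with 0.76, 1.35 and 0.72 within slides 1, 2 and 3. In set 1 the difference was 0.21 ± 0.14 (adjusted p = 0.729). The call in set 2 lay close to the threshold. It held in 5 of the 12 fits that left out 1 array and was lost without set 2 replicate 1 (adjusted p = 0.0910) or 2 (0.0612), plasmid replicate 1 (0.0530) or 3 (0.0509), or control replicate 1 (0.0729), 2 (0.0623) or 3 (0.0837).

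Bax encodes a protein that opens the outer mitochondrial membrane. It was at 3.36, 1.37 and 2.88 in set 1, 3.72, 3.36 and 3.52 in set 2, 3.50, 3.19 and 3.31 under the plasmid, and 3.49, 3.11 and 3.26 under control siRNAs. The set 1 replicate 2 array was far below the 11 others, at an unscaled signal of 2959, and its spot carried no outlier mark. The difference was -0.75 ± 0.40 in set 1 (limma adjusted p = 0.608) and 0.24 ± 0.40 in set 2 (0.889). With that array left out the set 1 difference was -0.17. Pmaip1 encodes Noxa, another BH3-only protein, and lay between -4.63 and -3.38 on the 12 arrays. Its 3 set 1 arrays were above all controls, the other groups overlapped control, and the difference was 0.62 ± 0.28 in set 1, 0.44 ± 0.28 in set 2 and 0.55 ± 0.28 under the plasmid, with limma adjusted p of 0.505 or more.

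Phlda3, a pleckstrin homology domain protein that restrains the survival kinase Akt, rose in set 2. It was at 0.67, 0.32 and 0.33 in set 1, 1.30, 1.57 and 0.95 in set 2, 0.39, 0.58 and 0.36 under the plasmid, and 0.33, -0.29 and 0.02 under control siRNAs. The set 2 arrays were above the 9 others, and the lowest set 1 array lay just below the highest control. Phlda3 rose 2.38-fold in set 2 (1.25 ± 0.20, limma adjusted p = 0.0305, 0.0245 with the slide as a block), with 0.97, 1.86 and 0.92 within slides 1, 2 and 3. In set 1 and under the plasmid the difference was 0.42 ± 0.20 in each case, with adjusted p of 0.524 and 1.00. The set 2 call held in 6 of the 12 fits that left out 1 array. It was lost without set 2 replicate 1 (adjusted p = 0.0975) or 2 (0.0756), plasmid replicate 1 (0.0530) or 3 (0.0521), or control replicate 2 (0.0615) or 3 (0.0840). Over both sets Phlda3 missed the threshold (0.83, limma adjusted p = 0.0636). It passed with the slide as a block (0.0475) and with another background correction (normexp, then quantile normalization, 0.0438).

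Eda2r, a receptor of the tumour necrosis factor family that binds ectodysplasin A2, lay at the lower edge of what the arrays measured. It was at -7.23, -6.51 and -6.99 in set 1, -6.52, -5.81 and -5.98 in set 2, -7.18, -7.15 and -7.14 under the plasmid, and -8.15, -8.59 and -8.41 under control siRNAs. Every array of the other 3 groups was above every control array, but the spot was well above background on only 1 of 3 set 1 arrays, 2 of 3 set 2 arrays, and none of the plasmid or control arrays. The unscaled signals ran from 1.79 to 13.6. The fitted difference from control was 1.47 ± 0.22 in set 1 (limma adjusted p = 0.0277), 2.28 ± 0.22 in set 2 (0.00637) and 1.22 ± 0.22 under the plasmid (0.0703). As no control array was well above background, the lowest signal that was so on each control array was taken as a floor. It averaged -6.30 (the probe itself averaged -8.38 there), and the set 2 mean of -6.10 was 1.15-fold above it. The floor is no strict limit, since all 3 set 2 spots lay above the floor of their own array and only 2 passed as well above background. The same ratio was under 1 for set 1 and for the average, so no fold is given there. The second Eda2r probe, well above background on 2 set 2 arrays and no other, was 1.16-fold above that floor in set 2 and was too dim to be tested. With another background correction (normexp, then quantile normalization) the set 2 difference shrank to 0.14 (adjusted p = 0.370), that of set 1 to 0.06 (0.910) and that of the average to 0.10 (0.522). The set 1 call held in 3 of the 12 fits that left out 1 array. It was lost without set 1 replicate 1 (adjusted p = 0.0525), 2 (0.103) or 3 (0.0983), set 2 replicate 3 (0.0614), plasmid replicate 1 (0.0603) or 3 (0.0565), or control replicate 1 (0.0783), 2 (0.0520) or 3 (0.102). The set 2 call held in all 12.

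Sesn2, a sestrin that restrains mTORC1 when amino acids are short, was not called. It lay between 0.41 and 0.99 on the arrays of set 1, set 2 and the plasmid, and was at 0.68, -0.16 and 0.91 on the control arrays. Control replicate 2 was low and the other 2 control arrays were inside the range of the rest. The difference was 0.26 ± 0.25 in set 1, 0.36 ± 0.25 in set 2 and 0.27 ± 0.25 under the plasmid, with limma adjusted p of 0.628 or more.

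Counted without a test, all set 2 arrays lay above all control arrays for 3 of the 9 genes other than Eda2r (Ccng1, Bbc3 and Phlda3), where this held for 10.2% of all genes tested. For set 1 it was 2 of 9 (Ccng1 and Pmaip1) against 7.47%, for all 6 siRNA arrays 1 of 9 (Ccng1) against 3.29%, and for the plasmid 3 of 9 (Bbc3, Phlda3 and Cdkn1a) against 5.88%. Some of these gaps were narrow. The lowest plasmid and highest control array were at -0.109 and -0.122 for Bbc3 and at 0.358 and 0.326 for Phlda3. For Pmaip1 the lowest set 1 and highest control array were at -4.007 and -4.023.

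**Figure D2:**
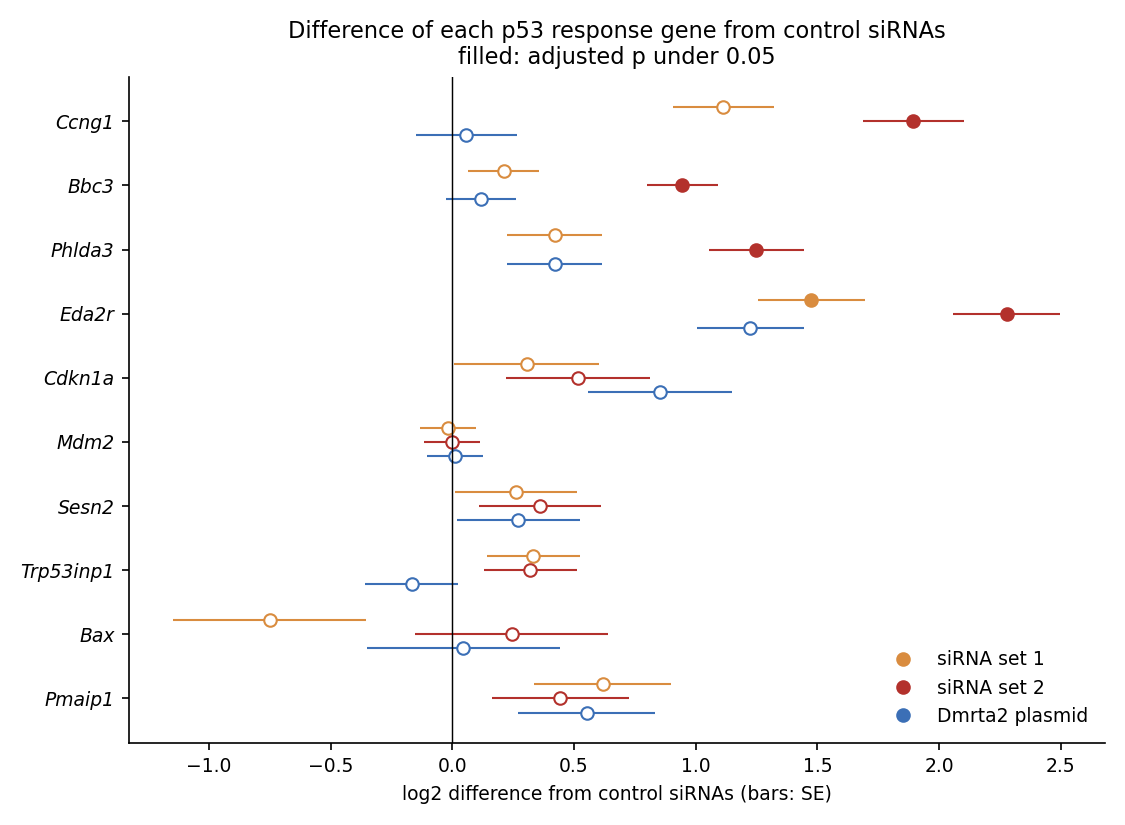
Log2 difference from control siRNAs (horizontal axis) for each of the 10 genes in siRNA set 1, siRNA set 2 and the Dmrta2 plasmid, with bars for the SE and filled points at an adjusted p under 0.05. The filled points are Ccng1, Bbc3, Phlda3 and Eda2r in set 2 and Eda2r in set 1, where Eda2r was not above background on any control array. The Mdm2 points lie at 0.

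Setting set 2 directly against set 1 asks whether the pools of siRNAs differed in these genes. None of the 10 was called, where 0.0781% of all genes were called in either direction, and of the 9 other than Eda2r 4 had an unadjusted p under 0.05 (Bbc3, Phlda3, Ccng1 and Bax), where 9.75% of all genes had. The difference, set 2 minus set 1, was 0.74 ± 0.14 for Bbc3 (limma adjusted p = 0.106), 0.83 ± 0.20 for Phlda3 (0.149), 0.78 ± 0.21 for Ccng1 (0.219), 0.80 ± 0.22 for Eda2r (0.233, with 2 and 1 of 3 arrays well above background) and 0.99 ± 0.40 for Bax (0.442). For Ccng1, Bbc3, Phlda3 and Bax all 3 set 2 arrays were above all 3 set 1 arrays, 4 of 9 against 7.65% of all genes tested, though for Bax the lowest set 2 and the highest set 1 array both round to 3.36. So the calls of Bbc3 and Phlda3 in set 2 and their absence in set 1 were not shown to be a difference between the sets. A slide block left the adjusted p of the 10 at 0.0939 or more.

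The plasmid arrays were also set against the siRNA arrays, which asks whether a plasmid for Dmrta2 and siRNAs against Dmrt3 and Dmrta2 left these genes at different levels. Ccng1 was 0.367 of its level in the siRNA arrays (plasmid minus the average of both sets, -1.45 ± 0.18, n = 3 against 6, limma adjusted p = 0.00299). It was the only 1 of the 9 genes other than Eda2r called lower, where 0.833% of all genes were. None of the 9 was called higher, where 1.32% of all genes were, and Eda2r was not called. For Ccng1 all 3 plasmid arrays were below all 6 siRNA arrays, within slides 1, 2 and 3 by -1.22, -1.56 and -1.56, and the call held whichever array was left out. Against set 2 alone, a comparison added after the data were seen, 2 of the 9 genes other than Eda2r were called lower, where 0.839% of all genes were. They were Ccng1 (-1.84 ± 0.21, limma adjusted p = 0.00163) and Bbc3 (-0.83 ± 0.14, 0.0168). Eda2r had a fitted difference of -1.05 ± 0.22 (limma adjusted p = 0.0359). No plasmid array was well above background, and set 2 was 1.35-fold above the floor of the plasmid arrays, taken as for the control arrays. Phlda3 missed the threshold (-0.83 ± 0.20, 0.0592) and passed it with the slide as a block (0.0461). It also passed with normexp (0.0357), with quantile normalization (0.0487) and without control replicate 2 (0.0495). For 4 of the 9, Ccng1, Bbc3, Phlda3 and Trp53inp1, all plasmid arrays were below all set 2 arrays, against 9.82% of all genes tested. Bbc3 was not called without plasmid replicate 1 (0.0643), 2 (0.0627) or 3 (0.0687). Eda2r was called in 5 of the 12 fits that left out 1 array, with an adjusted p of up to 0.132. It was not called with normexp (-0.08, adjusted p = 0.633) or with quantile normalization (-1.05, 0.117). These comparisons and those with control siRNAs share arrays.

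**Figure D3:**
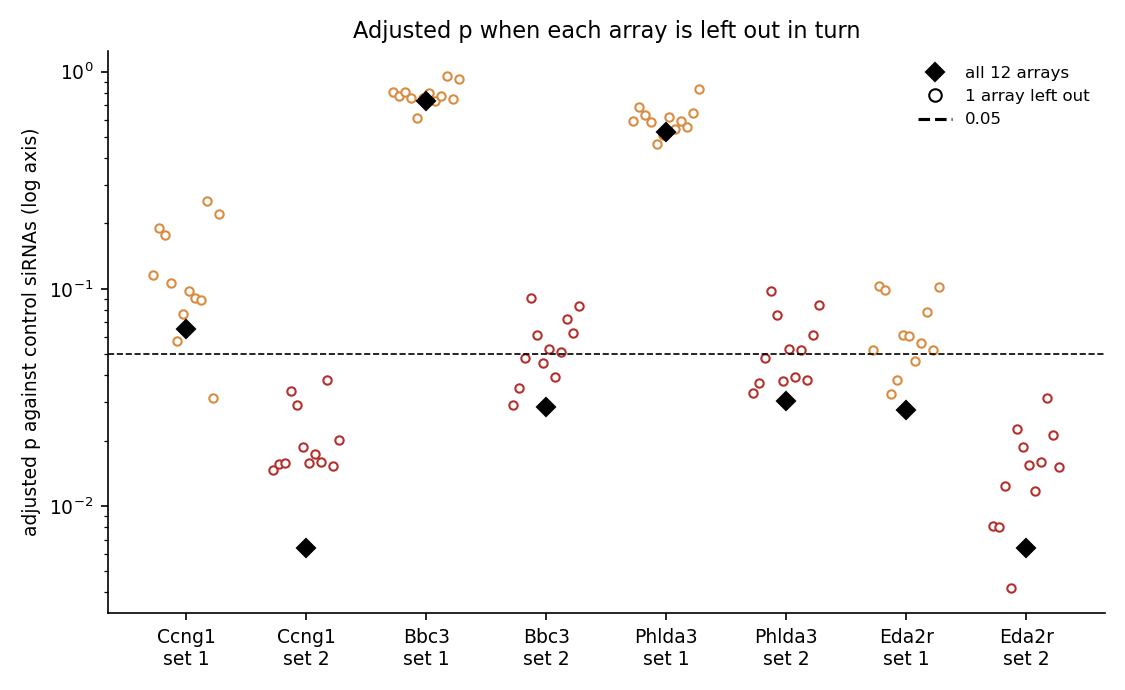
Adjusted p against control siRNAs (vertical axis, log scale) of the 4 genes called in set 2, for set 1 and set 2, with all 12 arrays (diamonds) and with each array left out in turn (12 circles per column); the dashed line is 0.05. All circles of Ccng1 and Eda2r in set 2 lie below the line, while those of Bbc3 and Phlda3 in set 2 lie on both sides of it.

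Of the other genes of the p53 pathway, none was called against control apart from the paralog Sesn3. Of 12 regulators of p53, 11 were tested and none was called against control in any group. At an unadjusted p under 0.05 there was 1 of 11 in set 1, 1 of 11 in set 2 and 0 of 11 under the plasmid, where 9.97%, 12.8% and 4.48% of all genes were, in the same order. Trp53, the gene of p53 itself, differed from control by -0.20 ± 0.24 in set 1, -0.18 ± 0.24 in set 2 and -0.02 ± 0.24 under the plasmid, so its mRNA showed no difference beyond the error. Mdm4, the partner of Mdm2 in holding p53 down, differed by -0.24 ± 0.23, -0.45 ± 0.23 and -0.05 ± 0.23 for the same comparisons. Of 30 further targets of p53, 28 were tested and none was called against control. At an unadjusted p under 0.05 there were 3 of 28 in set 1 (9.97% of all genes), 7 of 28 in set 2 (12.8%) and 2 of 28 under the plasmid (4.48%). In set 2 these, named after their values were seen, were Aen (0.60 ± 0.16), Ak1 (0.55 ± 0.23), Psrc1 (0.44 ± 0.15), Tigar (0.42 ± 0.17) and Tnfrsf10b (0.46 ± 0.16) above control and Rprm (-0.36 ± 0.16) and Zmat3 (-0.41 ± 0.13) below it, with limma adjusted p from 0.133 to 0.372. The median over the 28 was -0.01 in set 1, 0.20 in set 2 and 0.07 under the plasmid.

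Set against the average of both siRNA sets, 3 of these 28 further targets were higher under the plasmid, where 1.32% of all genes were. They were Plk3, a polo-like kinase (0.98 ± 0.16, limma adjusted p = 0.0120), Cd82, a tetraspanin of the cell surface (0.54 ± 0.12, 0.0451), and Zmat3, a zinc finger protein that binds RNA (0.51 ± 0.11, 0.0477). Their direction was opposite to that of Ccng1 in the same comparison. Against set 2 alone the same 3 were called (0.86, 0.67 and 0.62), where 1.59% of all genes were called higher. Plk3 was called in 10 of the 12 fits that left out 1 array and was lost without plasmid replicate 2 or 3 (adjusted p = 0.0650 and 0.0780). Cd82 and Zmat3 were called in 1 of 12 each, and Cd82 was lost with the mean of its probes (0.26, adjusted p = 0.647).

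Of 10 paralogs of the members, 8 were tested. Sesn3, a sestrin like Sesn2, fell in set 2 to 0.415 of control (-1.27 ± 0.13, n = 3 against 3, limma adjusted p = 0.00637), where 0.28% of all genes were called lower, and the call held whichever array was left out. It differed from control by -0.11 ± 0.13 in set 1 and -0.03 ± 0.13 under the plasmid. Set 2 minus set 1 was -1.16 ± 0.13 (limma adjusted p = 0.0276), a call kept in 4 of the 12 fits that left out 1 array, with an adjusted p of up to 0.131. Sesn3 thus went below control in the arrays where Sesn2 gave 0.36 ± 0.25. Against control the other 7 were not called in set 1, set 2 or under the plasmid. Their differences in set 2 were 0.10 for Ccng2, -0.56 for Phlda1, 0.21 for Cdkn1b, -0.79 for Cdkn1c, 0.20 for Sesn1, -0.01 for Trp53inp2 and -0.45 for Mdm4. Phlda1 was higher under the plasmid than over both siRNA sets (0.81 ± 0.15, limma adjusted p = 0.0212).

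Among 20 genes of the BCL2 family and caspases, none was called against control in set 1, set 2 or under the plasmid, with 5, 7 and 2 of 20 at an unadjusted p under 0.05, where 9.97%, 12.8% and 4.48% of all genes were. With the slide as a block Casp6 was called higher in set 1 (0.60, limma adjusted p = 0.0410) and over both sets (0.51, 0.0326), and Bid over both sets (0.44, 0.0374). The median difference of the 20 was 0.05 in set 1, -0.06 in set 2 and 0.05 under the plasmid. Among 15 cell cycle genes, most of them of G1 and S phase but with Ccnb1 and Cdk1 of mitosis, none was called against control either, with 5, 3 and 0 of 15 at an unadjusted p under 0.05, beside the same shares of all genes. All 15 lay below control in set 1 and 14 of 15 in set 2, against 8 of 15 under the plasmid, where 51.6%, 49.3% and 47.6% of all genes did, and their median was -0.43, -0.29 and -0.03. Within slides 1, 2 and 3 the set 2 median was -0.61, 0.27 and -0.57, so it was above 0 on slide 2.

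**Figure D4:**
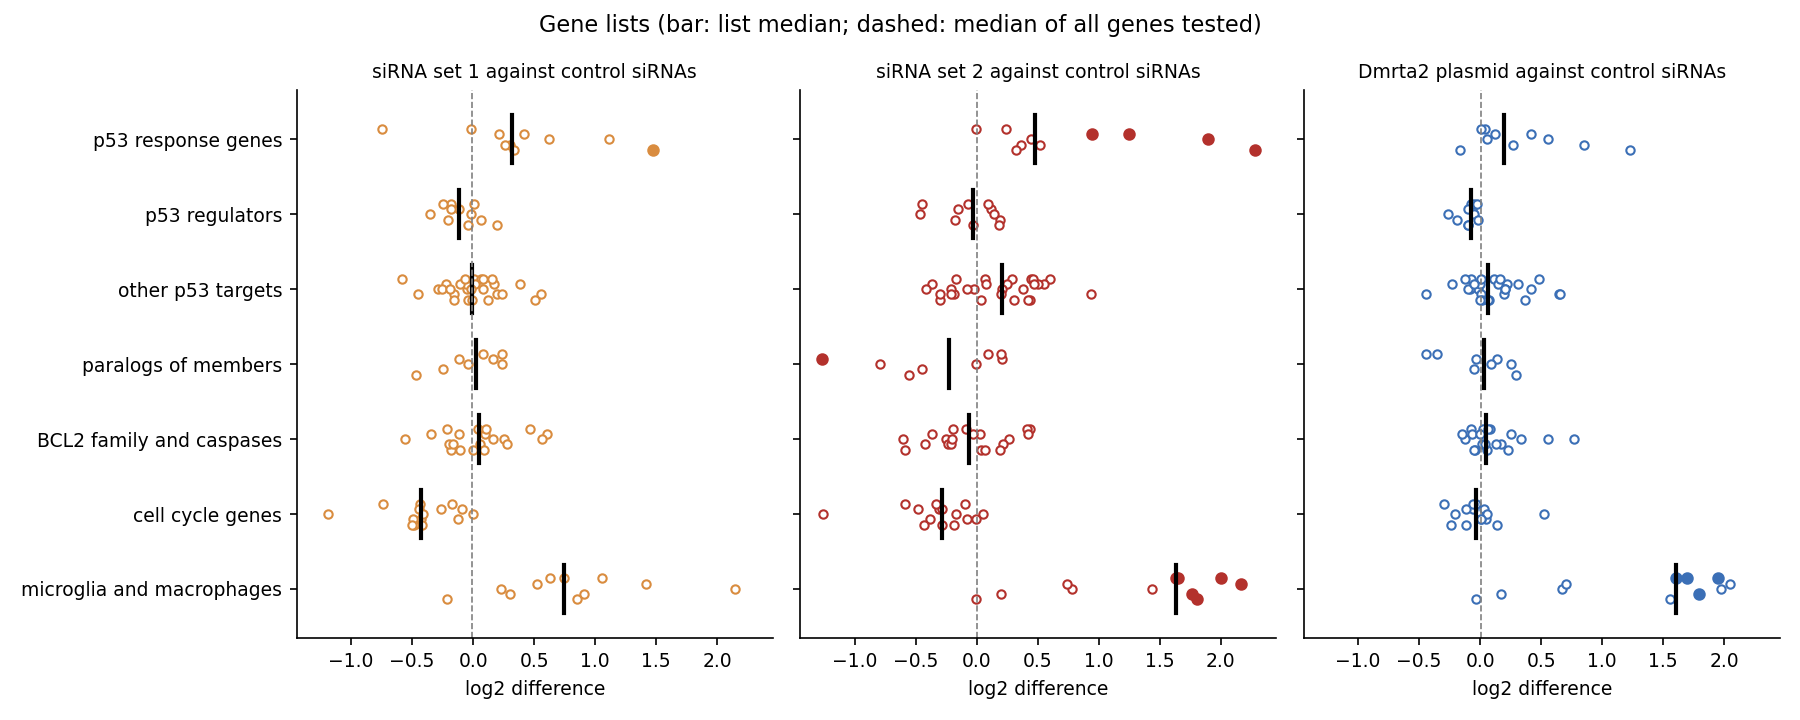
Log2 difference from control siRNAs (horizontal axes) of each tested gene of 7 lists, in siRNA set 1, siRNA set 2 and the Dmrta2 plasmid, with filled points at an adjusted p under 0.05, black bars for list medians and a dashed line for the median of all genes tested. The filled points of set 2 are 4 p53 response genes (Eda2r included), Sesn3 and 6 microglial genes; those of the plasmid are 4 microglial genes.

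Markers of microglia and macrophages, cells that can enter a sorted sample, were called higher in set 2 and under the plasmid. Of 12 markers, 11 were tested. Against control 6 were called higher in set 2 (Aif1, C1qa, C1qc, Cx3cr1, Trem2 and Tyrobp), 0 in set 1 and 4 under the plasmid (Aif1, C1qc, Cx3cr1 and Tyrobp), where 0.664%, 0.15% and 0.28% of all genes were, with medians of 1.64, 0.75 and 1.61. All 6 calls were lost without set 2 replicate 1 (limma adjusted p from 0.0749 to 0.116), and all 4 without plasmid replicate 1 or 3. The slide as a block made 8 calls in set 2, where it called 362 of all 15369 genes in either direction. Leaving out 1 array gave 0 to 7 calls in set 2 and 0 to 6 under the plasmid. Over all genes those fits called 10 to 145 in set 2 and 19 to 55 under the plasmid, in either direction. The summed signal of the 11, in units of the array's 75th percentile, was 2.26 to 5.86 in set 1, 3.49 to 6.40 in set 2, 3.45 to 6.44 under the plasmid and 2.42 to 6.06 under control siRNAs. Without Csf1r, the brightest, it was 0.686 to 0.907, 1.12 to 1.44, 1.09 to 1.39 and 0.404 to 0.615. Between 9 and 11 of the 11 were well above background on each array, and Mrc1 was so on 3 arrays in all. The sums without Csf1r in set 2 and under the plasmid lay in the same range. Under the plasmid Ccng1 differed from control by 0.06 ± 0.21, Bbc3 by 0.12, Phlda3 by 0.42 and Eda2r by a fitted 1.22, none of them called. The part of these cells in the levels of the 4 called genes was not tested. Of 10 interferon response genes 7 were tested and none was called, and their summed signal was 0.312 to 0.584 in set 1, 0.328 to 2.94 in set 2, 0.233 to 1.53 under the plasmid and 0.332 to 0.571 under control siRNAs. Of 6 erythroid and 6 endothelial markers, 5 each were tested and none was called against control. The summed erythroid signal was 1.70 to 18.6 in set 1, 3.43 to 7.88 in set 2, 5.22 to 11.02 under the plasmid and 1.94 to 3.84 under control siRNAs, so only the plasmid arrays were all above the control arrays. The summed endothelial signal overlapped between all groups, at 4.65 to 12.7 in set 1, 5.84 to 11.7 in set 2, 5.51 to 12.4 under the plasmid and 6.08 to 12.1 under control siRNAs. That sum follows Kdr, which lay between 2.15 and 3.64 on the log2 scale, where no other tested marker was above -2.01. It therefore says little of the dimmer markers. The median log2 difference of the tested endothelial markers from control was 0.34 in set 1, 0.74 in set 2 and 0.93 under the plasmid.

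Over the 12 arrays, with the mean of each slide taken off, the 5 genes whose values were most like those of Ccng1 were Nlk (r = 0.984), Ubxn1 (0.978), Tomm20 (0.976), Spin2c (0.976) and Pdrg1 (0.974), of 15294 genes measured on all arrays. Tomm20, part of the import receptor of mitochondria, was at 3.37, 3.11 and 3.29 in set 1, 3.50, 3.63 and 3.52 in set 2, 2.62, 2.30 and 2.39 under the plasmid, and 2.53, 2.40 and 2.44 under control siRNAs. As for Ccng1, its 6 siRNA arrays were all above the 6 others. Among the p53 response genes the likeness to Ccng1 was 0.86 for Bbc3, 0.79 for Phlda3, 0.79 for Eda2r and 0.71 for Trp53inp1. It was 0.46 for Sesn2, 0.27 for Pmaip1, 0.15 for Cdkn1a, 0.06 for Bax and -0.21 for Mdm2. These correlations describe 12 arrays that share groups and slides. By this measure Bbc3 ranked 295 among the 15294 genes, Phlda3 610, Eda2r 626 and Trp53inp1 1132, so many genes outside this list followed Ccng1 more closely. Eda2r was well above background on only 3 of the 12 arrays.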

How the data were processed

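Gene expression was measured on 12 one-colour Agilent arrays, 3 for each of 4 groups, from 0.1 ug of RNA per the labels. Per the file headers, Agilent Feature Extraction 10.5.1.1 gave each spot an intensity (the processed signal) that is background-subtracted and detrended within its array, with no normalization across arrays. The authors also deposited a table of log2 values. Set against the scanner values, these were the processed signal scaled to each array's 75th percentile and centred on each probe's median, in the same direction (r of at least 0.999 on every array), and they served as an alternative. The deposited median spot and background intensities served for the normexp alternative (offset 50), since no column of mean intensities was present.

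Control spots and spots with an outlier mark (136 to 218 of 43020 per array) were left out, log2 signals were lowered by their array's 75th percentile, and repeated spots of a probe were averaged. Probes were named through RefSeq accessions in a gene table of GRCm38.p6, while the array annotation used mm9, so probes have no coordinates here. A probe was kept if well above background on at least 3 arrays, with at most 4 arrays missing, and a gene was represented by its brightest kept probe. The limit of 4 missing arrays was set after other limits had been tried and moved the counts of called genes by a few genes. limma 3.58.1 in R 4.3.3 was fitted over all 12 arrays (8 residual degrees of freedom), two-sided, with Benjamini-Hochberg adjustment, after being tested on simulated data. The SE is limma's moderated one, and precision is limited by how many arrays there are.

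The members, the gene lists and the rule for named genes were chosen with earlier results of these data known. That rule took all 10 members, every called gene of the other lists (some are not reported here), Trp53, Mdm4 and the members' paralogs, and the 5 genes most like Ccng1. The 7 genes of the further targets with a low unadjusted p were chosen after their values were seen. The lists were p53 regulators, other p53 targets, paralogs of members, BCL2 family and caspases, cell cycle genes, and markers of dorsal telencephalic progenitors, microglia and macrophages, interferon response, erythroid cells and endothelium. The comparison of the plasmid with set 2, the fit over all probes, the counts without Eda2r, the sum of microglial markers without Csf1r and the alternatives for genes that are no members were added after seeing the data. The slide equals the replicate number. Deviations of arrays with the same number correlated at 0.02 to 0.60 (18 pairs) and those with different numbers at -0.52 to 0.21 (36 pairs), so the slide was also fitted as a block, which leaves each difference as it was. Other alternatives were quantile normalization, other filters on dim probes, the mean of a gene's probes and leaving out each array.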

Additional observations from a re-analysis of the deposited data

Results flagged for a closer look

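The following results are differences between treatments that were themselves tested, over all 15369 genes with limma, and passed. The values are the first group minus the second. Of the p53 response genes, Ccng1 was lower under the Dmrta2 plasmid than in both siRNA sets averaged (-1.45, adjusted p = 0.00299) and than in set 2 (-1.84, 0.00163). Bbc3 was lower under the plasmid than in set 2 (-0.83, 0.0168). Eda2r entered the test through siRNA arrays alone, with no plasmid array well above background, so its fitted -1.05 against set 2 (0.0359) is only a description. That call was lost with normexp (adjusted p = 0.633) and with quantile normalization (0.117), and was kept in 5 of the 12 fits that left out 1 array.

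Other genes of the lists went the opposite way. Plk3 was higher under the plasmid than in the siRNA average (0.98, adjusted p = 0.0120) and than in set 2 (0.86, 0.0392), as were Cd82 (0.54, 0.0451, and 0.67, 0.0315) and Zmat3 (0.51, 0.0477, and 0.62, 0.0346). Among the paralogs, Phlda1 (0.81, 0.0212, and 0.85, 0.0309) and Sesn3 (0.66, 0.0134, and 1.24, 0.00104) were higher in the same 2 comparisons, and Sesn3 was lower in set 2 than in set 1 (-1.16, 0.0276).

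Of the genes of apoptosis, Bcl2l11, which encodes the BH3-only protein Bim, was higher under the plasmid than in the siRNA average (0.61, adjusted p = 0.0423) and than in set 2 (0.81, 0.0217). Hrk (0.97, 0.0362) and Mcl1 (0.46, 0.0410) were higher under the plasmid than in set 2. Ccnd1, cyclin D1, was higher under the plasmid than in the siRNA average (1.75, adjusted p = 0.0491, which a slide block moved to 0.0688). Leaving out 1 array at a time, Sesn3 kept its call against the siRNA average in 10 of 12 fits, Phlda1 in 7, Bcl2l11 in 4 and Ccnd1 in 3. Against set 2, Hrk kept its call in 4 of 12 fits and Mcl1 in 1. Mcl1 was also lost with quantile normalization (adjusted p = 0.0630) and with the mean of its probes (0.0562). With the slide as a block, 3 of the 20 genes of the BCL2 family and caspases were called lower under the plasmid in each of these 2 comparisons. The same fit called 2 of the 20 higher against the siRNA average and 4 higher against set 2. Of all 15369 genes it called 530 and 673 in either direction, in the same order. Groups of 3 arrays are too small for a test of single outlying arrays.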

How the results depend on the processing

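The counts of called p53 response genes in set 2 against set 1 (0) and in the plasmid against the siRNA average (1) stayed the same in all 19 alternatives. The counts here include Eda2r, and without it they were 3 in set 2, 0 in set 1, 1 over both sets and 2 for the plasmid against set 2. The count in set 2 (4) was 2 with no filter on dim probes, where Bbc3 and Phlda3 both had an adjusted p of 0.0510. The count in set 1 (1) was 0 with normexp, with quantile normalization and with only probes well above background on all arrays, which leaves out Eda2r, and 2 with the replicate block (slide). The count over both sets (2) was 1 with that last filter. With 1 array left out, the counts ran from 2 to 4 in set 2, 0 to 1 in set 1, 1 to 2 over both sets, 0 to 1 under the plasmid and 1 to 4 for the plasmid against set 2. The call gained under the plasmid was Eda2r, without set 1 replicate 2 or set 2 replicate 1 (adjusted p = 0.0414 and 0.0383). Apart from these and the calls named with each gene, the replicate block added Phlda3 over both sets (0.0475), Phlda3 for the plasmid against set 2 (0.0461) and Ccng1 in set 1 (0.0408). Normexp added Phlda3 over both sets (0.0438) and for the plasmid against set 2 (0.0357), and quantile normalization added it in the latter (0.0487).

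Of 483 differences of the 10 genes under other settings 14 changed sign, and of 840 with 1 array left out 45 did, none of them of a called value. Calls over all genes moved more. In set 2, 145 genes were called, against 362 with the replicate block and 26 with no filter on dim probes, and in set 1 33 were, against 115 and 26. Over both sets 108 were, against 234 and 37, and in set 2 against set 1 12 were, against 37 and 0. For the plasmid against the siRNA average 331 were, against 530 and 246, and against set 2 374 were, against 673 and 261. Under the plasmid 43 were, against 56 and 34. With only probes above background on all arrays it was 26 under the plasmid, of 13767 genes tested. With normexp set 1 had 83 and set 2 against set 1 had 50. With 1 array left out, the calls over all genes ran from 10 (without set 2 replicate 1) to 145 in set 2, 4 (without set 1 replicate 2) to 84 in set 1, 17 (without control replicate 1) to 88 over both sets, 19 to 55 under the plasmid, 0 to 12 in set 2 against set 1, 106 to 329 for the plasmid against the siRNA average and 113 to 347 against set 2. The cause of each shift was not tested, other than that fewer genes and samples enter some fits. Signal over background limits Eda2r, and 3 arrays per group limit every call near the threshold.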
